A study of Mus musculus with 12 samples.

Results

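The genes described here are 34 mouse genes of the Fanconi anemia pathway, of homologous recombination and of the repair of stalled replication forks, read out of a table of 24100 genes. They were listed by name and pathway, with earlier results of these data known. All 34 were found in the table, and all 34 passed the filter on low counts, with no member under 215 counts in any library. RNA was sequenced from SV40-immortalized MEFs (mouse embryonic fibroblasts, cultured connective tissue cells) of 2 lines from different mothers, isolated at embryonic day 13.5. WT MEFs were Rtf2+/+ and RTF2-deficient MEFs were Rtf2-/lox, that is, 1 allele was null from the germ line and the other was flanked by lox sites. MEFs of both genotypes were transduced with a Hit & Run Cre retrovirus 72 hrs before harvest and carry the SV40 large T antigen, so that neither Cre nor T antigen distinguishes the groups. The null allele was made with Cre driven by the ubiquitous EIIa promoter and the lox allele with Flp recombinase. Each line and genotype had 3 libraries, described in the paper as technical replicates, with the lines as the biological replicates. P-values and intervals therefore measure the spread between these libraries, and beyond the 2 lines nothing shows the spread between embryos.

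The Fanconi pathway repairs interstrand crosslinks, covalent bridges that stop a replication fork. A core complex of several proteins acts as a ubiquitin ligase that, with the E2 enzyme UBE2T, marks the FANCD2-FANCI clamp, and nucleases then cut around the lesion. The resulting break is resected by MRE11, RAD50, NBN, CtIP (Rbbp8) and EXO1, and the BRCA1-PALB2-BRCA2 axis together with the BCDX2 and CX3 complexes promotes strand invasion by the resected single strand. Fork remodellers such as SMARCAL1, ZRANB3 and HLTF reverse stalled forks, and many of the same proteins protect the reversed fork from degradation.

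RNA of the targeted gene Rtf2 fell in RTF2-deficient MEFs, as a check of the labels. Its normalised level, in counts per 1e6 counts (CPM) scaled by TMM, was 44.8 to 57.8 in the WT libraries of both lines and 5.45 to 6.66 in the RTF2-deficient libraries. The log2 fold change was -3.01 ± 0.06 (SE, n = 6 libraries per genotype, adjusted p = 2.45e-11, edgeR's quasi-likelihood test). Total counts were 39360167 to 44695002 per library. WT line 2 differed from the other groups in sex-linked RNA. Xist, expressed from the inactive X chromosome, was 0.0217 to 0.132 CPM there and 103 to 173 CPM elsewhere, and the Y-linked gene Ddx3y was 91.8 to 107 CPM there and at most 0.195 CPM elsewhere. In line 2, the effect of RTF2 therefore cannot be told apart from that of sex, whereas all 6 libraries of line 1 had Xist and near-zero Ddx3y. WT line 2 also enters the comparison over both lines, so this limit bears on the calls made there. In both lines, the genotypes differ in germ-line alleles and so come from different embryos. The effect of RTF2 thus cannot be told apart from that of the embryo within a line. The fibroblast markers Col1a1, Col1a2, Fn1 and Vim were abundant, their list of 10 summing to 19140 to 31710 CPM per library, but Dcn and Lum, 2 further fibroblast markers, did not exceed 2.10 and 1.65 CPM. The defining markers Epcam, Pecam1, Ptprc, Adgre1 and Sox10 of epithelial, endothelial, blood, macrophage and glial cells all stayed under 0.4 CPM. Summed per library, the marker lists other than fibroblast reached at most 612 CPM (neural, led by Nes), 91.2 CPM (epithelial, led by Krt19), 21.6 CPM (endothelial), 18.6 CPM (muscle) and 9.66 CPM (macrophage and blood). By edgeR, 2 low markers rose with loss of RTF2. These were the epithelial keratin Krt18, by 0.74 on the log2 scale (adjusted p = 0.0381) to at most 12.4 CPM, and the endothelial receptor Kdr, by 0.58 (adjusted p = 0.0492) to at most 15.2 CPM. Their part in the values of the members was not tested. In bulk RNA, fewer cells that express a gene and less RNA of it per cell cannot be told apart.

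Promoter windows of 300 bases, from 250 bases before to 50 bases after a RefSeq start on GRCm38.p6, were matched by gene for 25 of the 34 members, with 29 windows in all. The sequences are shown because many S phase genes are known targets of E2F factors. An E2F site was searched as TTTCCCGC, TTTGGCGC, TTTCGCGC or TTTGCCGC on both strands. It was present in 4 of 25 members, or 16%, against 2.6% of the 27025 genes and 2.26% of the 32851 windows in the whole promoter table. That table holds more genes than the 14263 tested, whereas all members passed the count filter. The shares here and below thus compare unlike sets, and a share among expressed genes was not taken. The matched stretches are printed 5′ to 3′ on the gene's strand, with the site in capitals.
Bard1, chr1:71103148-71103207, - strand: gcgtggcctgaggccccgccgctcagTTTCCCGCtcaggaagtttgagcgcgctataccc
Fancg, chr4:43010320-43010379, - strand: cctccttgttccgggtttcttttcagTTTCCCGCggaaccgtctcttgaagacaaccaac
Brca2, chr5:150522427-150522486, + strand: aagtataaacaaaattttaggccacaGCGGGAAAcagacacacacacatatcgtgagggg
Rad51c, chr11:87404462-87404521, - strand: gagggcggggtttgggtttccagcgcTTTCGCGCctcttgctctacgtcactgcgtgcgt
Rad51c, chr11:87404926-87404985, - strand: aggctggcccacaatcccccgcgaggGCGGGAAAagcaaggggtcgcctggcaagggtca
Rad51c held a site in each of its windows, which belong to different annotated starts, and the other 5 members called between genotypes below held none. The CCAAT box, the sequence bound by NF-Y, was found in 17 of 25 members, or 68%, against 41.1% of genes and 37.4% of windows. Of the 6 members called between genotypes below, 3 held it. The stretches around the CCAAT box nearest to the start are shown for these 3, whose RNA moved in opposite directions.
Mre11a, chr9:14784589-14784648, + strand: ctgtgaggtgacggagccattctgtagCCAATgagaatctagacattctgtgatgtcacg
Zranb3, chr1:128103050-128103109, - strand: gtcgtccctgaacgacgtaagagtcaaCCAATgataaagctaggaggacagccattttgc
Fancm, chr12:65075513-65075572, + strand: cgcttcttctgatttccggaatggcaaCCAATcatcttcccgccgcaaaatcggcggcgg
The CHR element (TTTGAA, both strands), a motif of genes active late in the cell cycle, was in 5 of 25 members, or 20%, against 20.2% of genes and 17.9% of windows. The windows of Fanci and Mus81 held none of these motifs. A match describes the letters in these windows only, and binding was not measured.

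Per kilobase of the longest annotated coding transcript, the members spanned a range from 2.37 to 20.9 CPM per kb in WT MEFs. The MRN complex, which senses broken ends, was among the most abundant. Nbn averaged 20.9 CPM per kb, Rbbp8 14.9, Rad50 14.3 and Mre11a 11.2. The ranges of Rbbp8 and Rad50 overlapped over the 6 WT libraries (13.6 to 16.0 and 12.8 to 17.3 CPM per kb), so their order was within their spread. At the low end, Palb2 averaged 2.37, Rad51c 2.68, Brca2 2.71 and Zranb3 2.83 CPM per kb, with overlapping ranges. Brca1 was higher than its partners in recombination, with 5.99 to 7.76 CPM per kb against 2.05 to 2.63 for Palb2 and 2.18 to 3.62 for Brca2 in the same libraries.

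**Figure D1:**
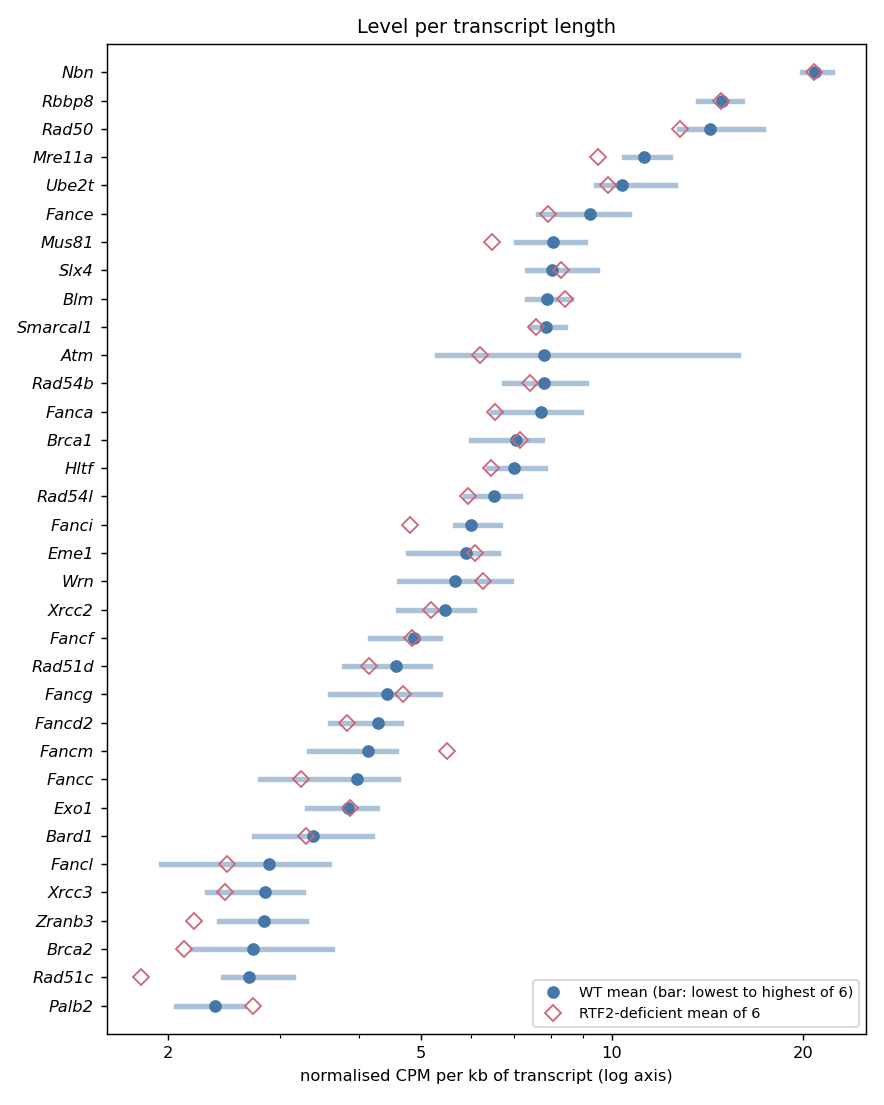
Normalised CPM per kb of transcript on a log axis for each of the 34 members, ordered by the WT mean (circle, with a bar from the lowest to the highest of 6 WT libraries), with the mean of the 6 RTF2-deficient libraries as a diamond. Levels run from Palb2 at 2.37 to Nbn at 20.9 CPM per kb in WT, and the diamonds of Rad51c, Brca2, Zranb3, Fanci, Mus81 and Mre11a lie below the WT bar and those of Fancm and Palb2 above it.

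To ask whether loss of RTF2 changed RNA of these repair genes, the genotypes were compared over both lines. Of the 34 members, 5 fell in RTF2-deficient MEFs (Rad51c, Fanci, Mus81, Mre11a and Zranb3) and 1 rose (Fancm) when called at an adjusted p under 0.05 (edgeR, quasi-likelihood, line and genotype as terms). Across the 14263 genes tested, 8.18% were called lower and 4.98% higher, against 14.7% and 2.94% of the members. No member passed the added condition of a log2 fold change beyond 1, which 1.72% of all genes passed. The largest fall was that of Rad51c, to 32.5% below WT, and Fancm was 33.9% above WT. The median log2 fold change of the members was -0.10, and 25 of 34 were below 0. Over all genes the median was 0.00 with 49.6% below 0. At an unadjusted p under 0.05, 15 members were counted, against 28.5% of all genes.

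The count depended on the test. When the 3 libraries of each group were summed, edgeR called 0 members and 0 of the 14263 genes, with 10 members and 19.2% of all genes at an unadjusted p under 0.05 and 1 residual degree of freedom. DESeq2 on the 12 libraries called 8 members lower and 1 higher, against 10.1% and 9.28% of the 13976 genes to which it gave an adjusted p. Limma's voom, with a random term for the group, called 11 members lower and 2 higher, against 13.4% and 10.8% of all genes. Its estimated correlation within groups was negative, at -0.148. Such a value treats group means as more precise than independent libraries would give, so its p-values are lenient and do not allow for technical replication. The members that were not called are not shown to be unchanged. Their intervals limit the change only against the spread between these libraries, not against that between embryos. Of the 28, 24 had a 95% interval of the log2 fold change between -0.5 and 0.5, and the bounds of all 28 ran from -0.73 to 0.37.

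**Figure D2:**
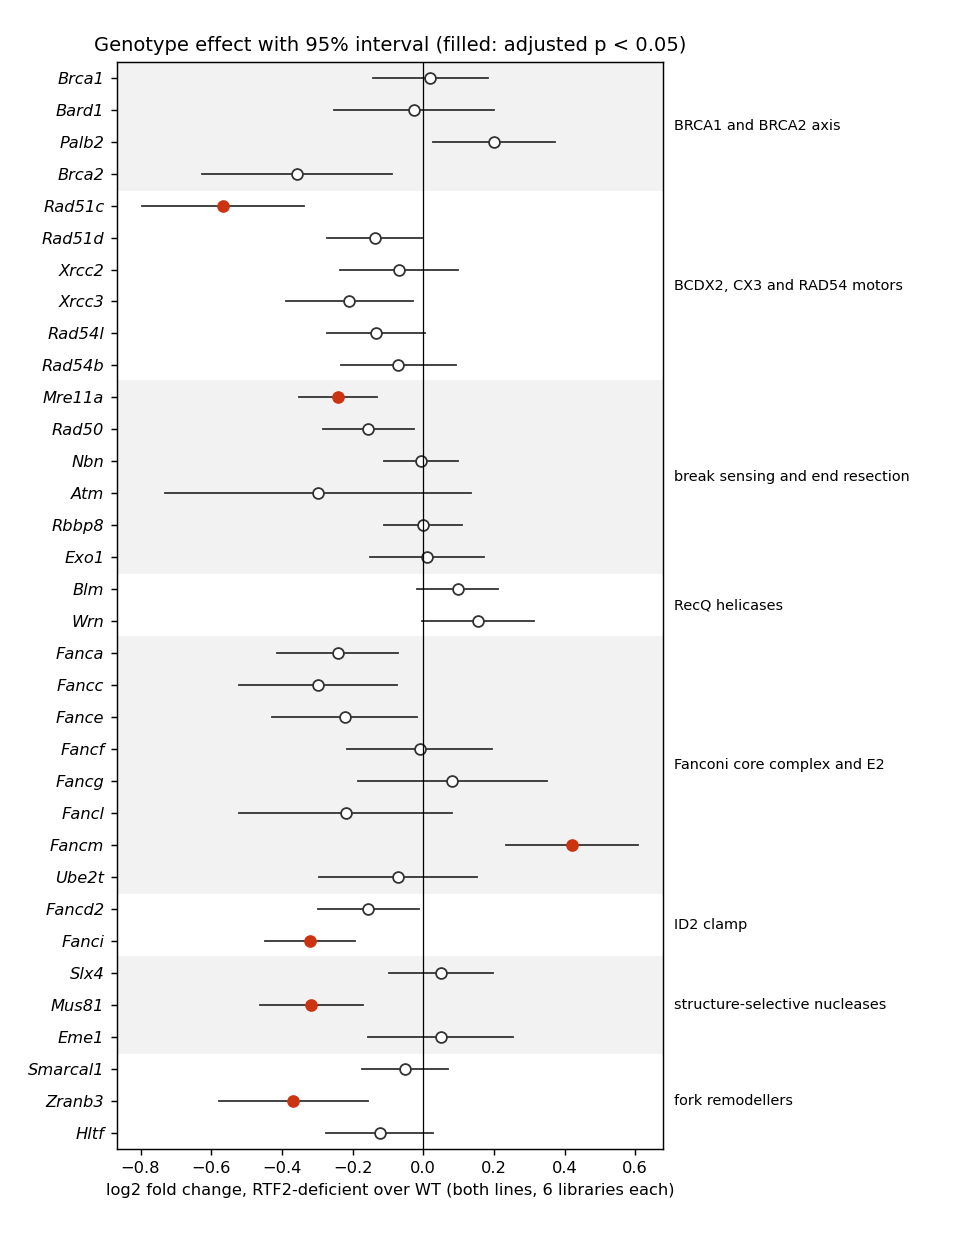
Log2 fold change of RTF2-deficient over WT MEFs over both lines for each member (point, with its 95% interval), grouped by role, with filled points at an adjusted p under 0.05. The filled points are Rad51c, Mre11a, Fanci, Mus81 and Zranb3 to the left of 0 and Fancm to the right, with values from -0.57 to 0.42.

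Among the 4 genes of the BRCA1-BRCA2 axis, none was called by edgeR over both lines with all 12 libraries. Brca1, whose protein directs ends towards recombination, had 47.0, 45.2 and 45.4 CPM in WT line 1 and 48.6, 41.3 and 47.9 CPM in RTF2-deficient line 1. In line 2, Brca1 had 50.3, 39.4 and 51.0 CPM in WT and 43.1, 50.5 and 50.8 CPM in RTF2-deficient MEFs. The groups overlapped fully, and the log2 fold change was 0.02 with a 95% interval from -0.14 to 0.18. Bard1, the partner of BRCA1, had a log2 fold change of -0.03 ± 0.10 (SE).

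Brca2, whose protein promotes strand invasion, had the widest difference of the axis. Its levels were 31.1, 25.2 and 23.9 CPM in WT line 1 and 24.4, 20.01 and 20.9 CPM in RTF2-deficient line 1. They were 38.9, 23.4 and 32.3 CPM in WT line 2 and 19.9, 25.7 and 25.2 CPM in RTF2-deficient line 2. WT line 2 replicate 1 was the highest and the groups overlapped, although in line 1 each RTF2-deficient library was below the WT library of the same number. The log2 fold change was -0.36 ± 0.12 (SE, n = 6 per genotype), with an adjusted p of 0.079 in edgeR and 0.044 in DESeq2. Without WT line 2 replicate 2, edgeR called Brca2 lower over both lines (adjusted p = 0.0303). Palb2, which bridges BRCA1 and BRCA2, lay in the other direction at 0.20 ± 0.08 (adjusted p = 0.119 in edgeR).

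Of the 6 genes of the BCDX2 and CX3 complexes and of the RAD54 motors, edgeR called Rad51c lower over both lines and did not call the other 5, whose values were negative. RAD51C sits in both complexes. Rad51c (chromosome 11, 87376645 to 87404954 on GRCm38) had 12.4, 9.64 and 9.72 CPM in WT line 1 and 11.3, 10.5 and 9.97 CPM in WT line 2. It had 8.64, 6.89 and 6.78 CPM in RTF2-deficient line 1 and 6.33, 6.11 and 8.14 CPM in RTF2-deficient line 2. All 6 RTF2-deficient libraries were below all 6 WT libraries. Such a separation was seen in 4.41% of all genes downward and in 1.56% upward, and in 4 and 1 of the 34 members. The log2 fold change of Rad51c was -0.57 ± 0.11 (SE, adjusted p = 0.00437 in edgeR).

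The other genes of these complexes had smaller values. Xrcc3, the partner of RAD51C in CX3, had a log2 fold change of -0.21 ± 0.08 and was called by voom (adjusted p = 0.0364). The fold change was -0.14 ± 0.06 for Rad51d and -0.07 ± 0.08 for Xrcc2. The RAD54 motors, which drive strand invasion, had -0.13 ± 0.06 for Rad54l and -0.07 ± 0.08 for Rad54b. Counts of Rad54b are uncertain because 35.8% of its exonic bases are shared on the same strand with Fsbp.

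Of the 6 genes of break sensing and end resection, edgeR called Mre11a lower. Mre11a encodes the nuclease of the MRN complex and lies on chromosome 9, from 14784654 to 14837125. It had 62.0, 62.8 and 69.9 CPM in WT line 1 and 60.7, 59.1 and 66.2 CPM in WT line 2. It had 50.5, 56.3 and 52.7 CPM in RTF2-deficient line 1 and 54.0, 55.1 and 53.6 CPM in RTF2-deficient line 2. The groups did not overlap, and the log2 fold change was -0.24 ± 0.05 (SE, adjusted p = 0.00902 in edgeR). Rad50, the ATPase of the complex, had -0.16 ± 0.06 (adjusted p = 0.111 in edgeR and 0.0371 in voom), and Nbn, which recruits ATM, had -0.01 ± 0.05 with an interval from -0.11 to 0.10.

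Atm, the kinase activated by MRN at breaks, was the most variable member. It had 56.6, 59.0 and 52.0 CPM in WT line 1 and 49.8, 52.2 and 52.2 CPM in RTF2-deficient line 1. In WT line 2 it had 155, 54.6 and 83.2 CPM, and in RTF2-deficient line 2 58.8, 75.3 and 76.9 CPM. WT line 2 replicate 1 stood far above the rest, and that library also had the highest median of the interferon-stimulated genes, 8.46 on the log2(CPM + 0.25) scale against 0.463 to 7.11 in the other 11. The part of this in the level of Atm was not tested. The log2 fold change of -0.30 ± 0.20 did not pass (adjusted p = 0.349 in edgeR). Rbbp8 and Exo1, both of resection, had log2 fold changes of 0.00 ± 0.05 and 0.01 ± 0.07.

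Neither Blm nor Wrn, RecQ helicases that unwind recombination intermediates, was called by edgeR over both lines. Blm had 36.6, 36.3 and 41.1 CPM in WT line 1 and 38.7, 39.0 and 40.3 CPM in RTF2-deficient line 1. In line 2, Blm had 37.4, 35.0 and 39.2 CPM in WT and 38.9, 43.5 and 41.1 CPM in RTF2-deficient MEFs. The groups overlapped, at a log2 fold change of 0.10 ± 0.05 (interval -0.02 to 0.21). Wrn had 0.15 ± 0.07 (adjusted p = 0.182 in edgeR).

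Of the 8 genes of the Fanconi core complex and its E2, edgeR called Fancm higher over both lines with all 12 libraries and did not call the other 7 there. FANCM is a DNA translocase that anchors the core complex at forks. Fancm (chromosome 12, 65074110 to 65131842) had 35.4, 35.2 and 35.5 CPM in WT line 1 and 28.6, 25.9 and 32.0 CPM in WT line 2. It had 39.8, 41.3 and 49.1 CPM in RTF2-deficient line 1 and 41.9, 47.6 and 37.0 CPM in RTF2-deficient line 2. All 6 RTF2-deficient libraries were above all 6 WT libraries, and the log2 fold change was 0.42 ± 0.09 (SE, adjusted p = 0.00736 in edgeR).

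Most of the other core genes were on the negative side. Fanca, a scaffold subunit, had 31.2, 36.9 and 37.6 CPM in WT line 1 and 29.7, 31.2 and 31.0 CPM in RTF2-deficient line 1. In line 2 it had 29.0, 33.4 and 40.0 CPM in WT and 30.1, 26.8 and 27.4 CPM in RTF2-deficient MEFs. The groups overlapped in part, and the log2 fold change was -0.24 ± 0.08 with an adjusted p of 0.0641 in edgeR and 0.0364 in DESeq2. In line 1 each RTF2-deficient library was below the WT library of the same number. The paired fit of line 1, given further down, called Fanca lower. Without WT line 1 replicate 1 or WT line 2 replicate 1, edgeR called it over both lines (adjusted p = 0.0459 and 0.0308). Fancc had -0.30 ± 0.10, with an adjusted p of 0.0792 in edgeR and 0.0498 in DESeq2. Without WT line 2 replicate 1, edgeR called Fancc lower (adjusted p = 0.0186). Fance had -0.22 ± 0.09 and Fancl, the RING ligase subunit, -0.22 ± 0.14. Fancf, Fancg and Ube2t had -0.01 ± 0.09, 0.08 ± 0.12 and -0.07 ± 0.10.

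In the ID2 clamp, edgeR called Fanci lower over both lines and did not call its partner Fancd2. Fanci (chromosome 7, 79392312 to 79450266) had 27.9, 26.6 and 26.3 CPM in WT line 1 and 30.9, 27.6 and 27.6 CPM in WT line 2. It had 22.6, 20.8 and 20.2 CPM in RTF2-deficient line 1 and 23.8, 21.1 and 25.2 CPM in RTF2-deficient line 2. The groups did not overlap, and the log2 fold change was -0.32 ± 0.06 (SE, adjusted p = 0.00395 in edgeR). Fanci shares 16.0% of its exonic bases with Polg on the opposite strand, and Polg had a log2 fold change of 0.17 (adjusted p = 0.169).

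Fancd2 had 25.6, 24.6 and 25.5 CPM in WT line 1 and 24.6, 21.2 and 20.7 CPM in RTF2-deficient line 1. In line 2 it had 21.1, 19.8 and 24.6 CPM in WT and 19.4, 20.99 and 19.8 CPM in RTF2-deficient MEFs. RTF2-deficient libraries lay towards the lower end but overlapped WT, and in line 1 each was below the WT library of the same number. The log2 fold change was -0.16 ± 0.07, with an adjusted p of 0.143 in edgeR and 0.0496 in voom.

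Of the structure-selective nucleases, edgeR called Mus81 lower. MUS81 cuts forks and joints together with EME1, and SLX4 is the scaffold of the nucleases. Mus81 (chromosome 19, 5482561 to 5488389) had 14.6, 16.0 and 16.3 CPM in WT line 1 and 17.2, 18.7 and 17.2 CPM in WT line 2. It had 13.4, 13.98 and 13.5 CPM in RTF2-deficient line 1 and 13.4, 11.98 and 13.9 CPM in RTF2-deficient line 2. The groups did not overlap, and the log2 fold change was -0.32 ± 0.07 (SE, adjusted p = 0.00883 in edgeR). Mus81 shares 4.85% of its exonic bases with Efemp2 on the opposite strand. Efemp2 averaged 252 CPM and was itself lower by 0.44 on the log2 scale (adjusted p = 0.0111), and without strand the reads of the shared bases cannot be told apart. Slx4 and Eme1 had log2 fold changes of 0.05 ± 0.07 and 0.05 ± 0.09. In line 1 each RTF2-deficient library of Slx4 was above the WT library of the same number. The paired fit of line 1, given further down, called Slx4 higher, while its log2 fold change in line 2 was -0.05.

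Of the fork remodellers, edgeR called Zranb3 lower. ZRANB3 is a translocase recruited by polyubiquitinated PCNA. Zranb3 (chromosome 1, 127954179 to 128103053) had 13.95, 14.1 and 11.4 CPM in WT line 1 and 15.6, 11.6 and 13.8 CPM in WT line 2. It had 10.7, 9.52 and 9.70 CPM in RTF2-deficient line 1 and 10.2, 9.72 and 12.6 CPM in RTF2-deficient line 2. RTF2-deficient line 2 replicate 3 overlapped WT. The log2 fold change was -0.37 ± 0.10 (SE, adjusted p = 0.0273 in edgeR), and the call was lost in 8 of the 12 fits that left out 1 library, at an adjusted p of up to 0.0689.

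Smarcal1, the remodeller bound by RPA, had 22.9, 24.7 and 22.8 CPM in WT line 1 and 24.1, 24.8 and 23.3 CPM in RTF2-deficient line 1. In line 2 it had 23.4, 25.8 and 24.6 CPM in WT and 23.8, 21.1 and 22.1 CPM in RTF2-deficient MEFs. The groups overlapped, at a log2 fold change of -0.05 ± 0.06 (interval -0.17 to 0.07). Hltf, a ligase for PCNA and a translocase, had -0.12 ± 0.07.

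**Figure D3:**
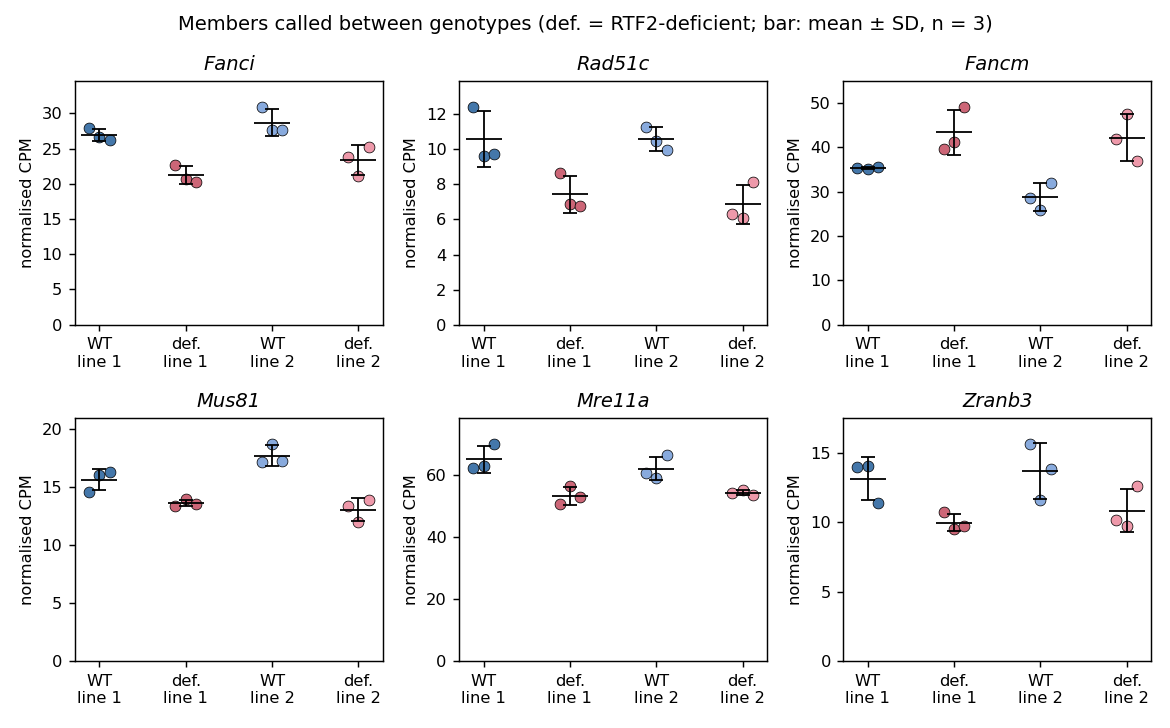
Normalised CPM (vertical axes from 0) in each of the 12 libraries for the 6 members called between genotypes, as points, with a bar for the mean ± SD of the 3 libraries of a group. In 5 panels no RTF2-deficient point overlaps a WT point, and in Zranb3 the RTF2-deficient point at 12.6 CPM lies above the lowest WT point at 11.4 CPM.

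The effect of genotype was also estimated in each line. In line 1, the count turned on the pairing of libraries. On the 4 groups, edgeR called 0 members in either direction, with 7 at an unadjusted p under 0.05 (13.9% of all genes), while DESeq2 called 3 lower (4.39% of all genes). Over all genes, edgeR called 2.52% lower and 0.68% higher in line 1. Same-numbered WT and RTF2-deficient libraries of line 1 deviated together. In a fit of these 6 libraries alone with the replicate number as a block, added after seeing the data, edgeR called 8 members lower (Rad51c, Fanci, Mus81, Mre11a, Zranb3, Brca2, Fanca and Fancd2) and 2 higher (Fancm and Slx4), against 14.2% and 13.9% of all genes. Without the block the same 6 libraries gave 0 in either direction in edgeR, with 6 at an unadjusted p under 0.05, against 1.99% of all genes called lower and 0.533% higher. In line 2, Rad51c, Fanci and Mus81 were called lower and Fancm higher, against 7.03% and 5.42% of all genes. The count of 3 lower in line 2 became 1 when either replicate 1 or replicate 2 of RTF2-deficient line 2 was left out, and Fancm was not called without replicate 2. In those fits the share of all genes called lower was 3.56% and 3.11%. The median of the members was -0.11 in line 1 and -0.13 in line 2, and that of all genes was 0.01 and 0.00.

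The values of the 6 called members had the same sign in both lines. These 6 were picked by the fit over both lines, which favours equal signs, so this is not a replication. For Rad51c, line 1 gave a log2 fold change of -0.51 ± 0.15 and line 2 one of -0.62 ± 0.15. Fancm had 0.29 ± 0.11 and 0.55 ± 0.11, and Mus81 -0.20 ± 0.08 and -0.44 ± 0.08. Fanci had -0.35 ± 0.09 and -0.29 ± 0.09, Mre11a -0.29 ± 0.07 and -0.19 ± 0.07, and Zranb3 -0.40 ± 0.14 and -0.34 ± 0.14. Of all 34 members, 18 were negative and 7 positive in both lines.

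The difference between the lines was tested itself. The interaction in edgeR called 0 of 34 members, against 1.29% of all genes, and 0 had an unadjusted p under 0.05, against 8.49% of all genes. DESeq2 called 0 as well. This does not show that the lines moved alike. The 95% interval of the difference lay between -0.5 and 0.5 for 22 members and between -1 and 1 for 33. The smallest p was that of Mus81, 0.0662, at a difference of -0.24. Between the WT lines, edgeR called 0 members, with 6 at an unadjusted p under 0.05 (28.1% of all genes), while 7.31% of all genes were lower and 6.7% higher in WT line 2. With the replicate block on the WT libraries alone, edgeR again called 0 members, with 4 at an unadjusted p under 0.05, against 8.86% of all genes called lower and 8.72% higher. DESeq2 called 1 member higher (9.01% of all genes), and edgeR called 3 higher without WT line 2 replicate 2 (8.1% of all genes). This comparison shares the WT line 2 libraries with the effect of genotype in line 2.

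**Figure D4:**
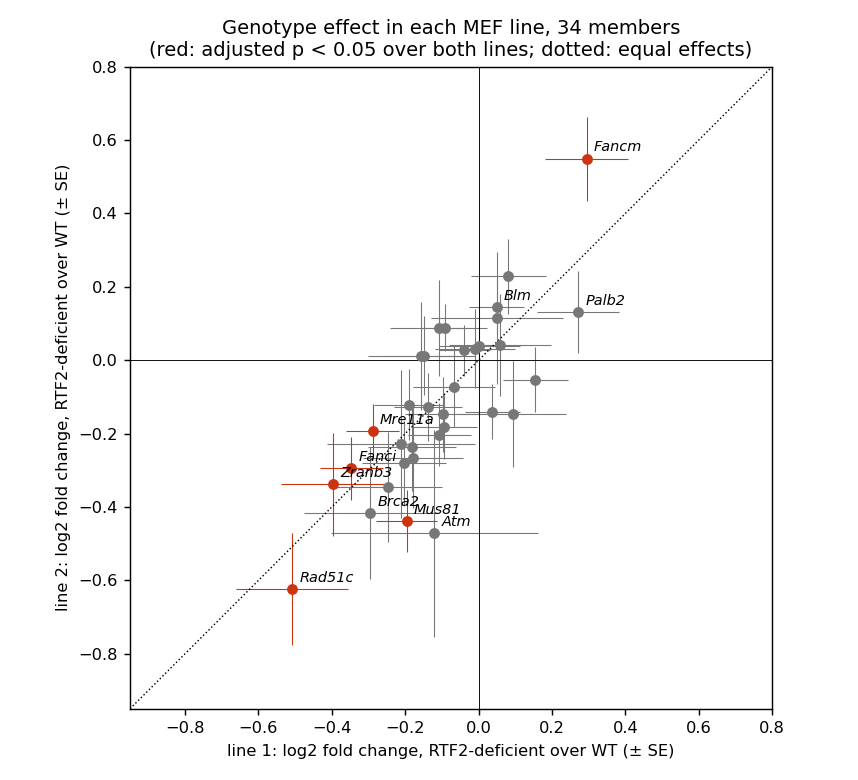
Log2 fold change of RTF2-deficient over WT MEFs in line 1 (horizontal) and line 2 (vertical) for the 34 members, with SE bars, red for the 6 called over both lines. Rad51c at -0.51 and -0.62 and Fancm at 0.29 and 0.55 lie at opposite ends, and most points lie near the dotted line of equal effects.

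Partners of known complexes were compared within each library, since a ratio of genes does not depend on the scaling of the library. The log2 ratio of CPM was taken for 11 pairs, and the shift between genotypes was tested with a two-sided exact permutation test of the libraries within each line, in which 400 arrangements allow a smallest p of 0.005. The pairs were chosen with results of these data known, and the test was added after seeing the data. Adjusted over the 11 pairs, 5 shifts passed, of which 4 hold a gene already called, so that they are not independent of those calls. Rad51c fell against Rad51d by 0.42 (exact p = 0.005, adjusted p = 0.0183) and against Xrcc3 by 0.36 (exact p = 0.01, adjusted p = 0.022). Mus81 fell against Eme1 by 0.36 (exact p = 0.005, adjusted p = 0.0183), and Mre11a fell against Nbn by 0.23 (exact p = 0.005, adjusted p = 0.0183).

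The fifth pair joined genes of which neither was called by edgeR over both lines with all 12 libraries, while Brca2 was called by DESeq2, voom and the paired fit of line 1, and Palb2 by voom. Palb2 rose against Brca2 by 0.53 (exact p = 0.01, adjusted p = 0.022), with shifts of 0.55 in line 1 and 0.52 in line 2. The ranges of the ratio overlapped, from -1.96 to -1.34 in WT and from -1.47 to -0.94 in RTF2-deficient MEFs. The shift was not called without WT line 1 replicate 1 or without WT line 1 replicate 2, nor were those of Rad51c to Xrcc3 and of Mus81 to Eme1 without WT line 2 replicate 1, all at an adjusted p of 0.055 in the exact test on fewer arrangements. Fancd2 against Fanci shifted by 0.17 (exact p = 0.06, adjusted p = 0.11), so the call of Fanci alone does not show that the genes of the clamp differed. Without WT line 2 replicate 3 this shift passed, at 0.22 (adjusted p = 0.0275 in the exact test). Mre11a against Rad50 did not pass either, at -0.09 (exact p = 0.3, adjusted p = 0.412). Swapping genotypes only within same-numbered pairs of line 1, in 160 arrangements, left each of the 5 passing shifts at an exact p of 0.0125, the smallest these allow, and an adjusted p of 0.0275. The permuted libraries are described in the paper as technical replicates, so the permutation does not measure the spread between embryos. With the triplicates summed, swapping genotypes within the 2 lines leaves 4 arrangements and a smallest exact p of 0.5, so no pair can pass, and the 5 shifts were -0.43, -0.35, -0.36, -0.23 and 0.56 in the order above.

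**Figure D5:**
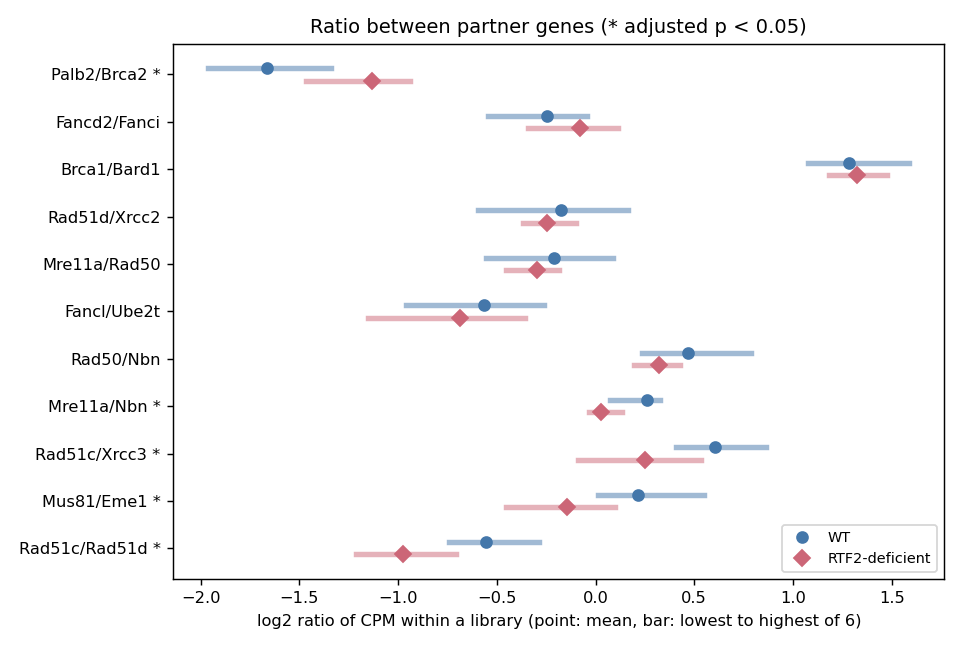
Log2 ratio of CPM between 2 partner genes in the same library, as the mean (point) and the lowest to highest of 6 libraries (bar) for WT and RTF2-deficient MEFs, with a star at an adjusted p under 0.05. Lengths of the genes are not corrected, so only the shift between genotypes is comparable, and it runs from -0.42 for Rad51c to Rad51d up to 0.53 for Palb2 to Brca2.

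Beyond the 34 members, 66 further genes of the same pathways were tested in the same fit. By edgeR, 6 fell, 1 rose and 59 were not called, that is, 9.09% lower and 1.52% higher against 8.18% and 4.98% of all genes. DESeq2 called 8 lower and 2 higher, against 10.1% and 9.28% of all genes, and with the triplicates summed edgeR called 0 in either direction. The median log2 fold change of the 66 was -0.09. Recql, a RecQ helicase, fell by 0.89 on the log2 scale (adjusted p = 6.64e-05 in edgeR), from 28.7 to 40.3 CPM in WT to 16.1 to 22.8 CPM in RTF2-deficient MEFs. Recql shares 37.7% of its exonic bases with Pyroxd1 on the opposite strand, which rose by 0.53 (adjusted p = 0.00034). Rtel1, a helicase that takes apart D-loops, fell by 0.61 (adjusted p = 0.000136) and Tonsl, which binds newly replicated chromatin, by 0.49 (adjusted p = 0.000486).

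The remaining calls were smaller. Ercc4, the XPF nuclease of crosslink repair, fell by 0.39 (adjusted p = 0.00596 in edgeR), Babam2 of the BRCA1-A complex by 0.30 (adjusted p = 0.0091) and Eme2, another partner of MUS81, by 0.44 (adjusted p = 0.0187). Of the exonic bases of Eme2, 28.2% are shared with Spsb3 and 25.95% with Mapk8ip3. Bod1l, a fork protection factor, rose by 0.54 (adjusted p = 0.00454), from 71.3 to 110 CPM in WT to 113 to 163 CPM in RTF2-deficient MEFs.

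Many of these repair genes are known to be expressed with the cell cycle, so S phase and mitotic genes were read from the same fit. Of 23 S phase genes, edgeR called 3 lower (Mcm7, Gins2 and Slbp), against 8.18% of all genes, and DESeq2 called 4 lower. At an unadjusted p under 0.05 there were 8, against 28.5% of all genes, and 19 of the 23 lay below 0, at a median log2 fold change of -0.05. Gins2, of the replicative helicase, fell by 0.49 (adjusted p = 0.000235 in edgeR). Of 24 genes of G2 and M phase, edgeR and DESeq2 each called 0, with 0 at an unadjusted p under 0.05 in edgeR, and the median was 0.00. Of 15 interferon-stimulated genes, edgeR and DESeq2 again called 0, with 0 at an unadjusted p under 0.05 in edgeR, a median of -1.69 and medians per library from 0.463 to 8.46 on the log2(CPM + 0.25) scale, and all 15 lay higher in WT line 2 than in WT line 1, of which edgeR called 7, against 6.7% of all genes. The part of any of these lists in the values of the members was not tested.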

How the data were processed

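RNA-seq libraries from WT and RTF2-deficient MEFs (4 groups of 3) were analysed. The authors deposited whole-number counts of 75-base single reads for each Entrez Gene number in each library, without normalization. According to the methods these came from Salmon and tximport on UCSC mm10 models, but HTSeq is named in the submitters' processing notes, and which of them made the table remains unsettled. Strand use in counting and poly(A) selection: not given in the sources used here. Each column name matched the title of 1 sample. Symbols and positions came from RefSeq (24045 of 24100 identifiers), and lengths and exons from GENCODE M21.

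Genes kept by filterByExpr were normalized by TMM and tested with edgeR 4.0.16 (R 4.3.3; glmQLFit, glmQLFTest) on line and genotype, or on the 4 groups for effects within lines, their difference and the WT lines. P-values were adjusted over all 14263 genes by Benjamini-Hochberg, and calls were made at 0.05. Library totals varied 39360167 to 44695002, and 3 counts correspond to at most 0.0762 CPM, for counting error only. Alternatives were RLE normalization, no filter, DESeq2 1.42.0, a replicate block, summed triplicates, voom (limma 3.58.1) and each library left out, and, added after seeing the data, line 1 or WT libraries alone with a replicate block and, for partner ratios, each library left out, swaps within line 1 pairs, summed triplicates and a prior count of 1 in place of 0.25. Deviations from group means of same-numbered libraries correlated at 0.768 to 0.842 between the genotypes of line 1 and 0.448 to 0.592 between the WT lines, so these numbers were taken as pairs, a hint from the data and not from the labels. In line 2 they ran from -0.762 to 0.216 and were not.

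The members, gene lists, partner pairs and motifs were chosen with earlier results of these data known. Members called between genotypes were described in every library, as were Brca1, Brca2, Rad51c, Mre11a, Fancd2, Fanci, Fanca, Blm, Smarcal1 and Atm. From the other pathway genes, those called were named, and 1 further gene of the rule is not reported here. The fit was tested on simulated data. Over both lines it recovered 50 of 100 genes changed by 0.5 on the log2 scale and 88 of 100 changed by 1. The interaction recovered 0 of 100 and 55 of 100, so differences between lines near 0.5 would mostly go uncalled. No pair of libraries of a group agreed within sampling noise (chi-square per degree of freedom 21.7 to 191), and all 12 were used.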

Additional observations from a re-analysis of the deposited data

Results flagged for a closer look

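Over 68 sets of 6 libraries (34 members in each genotype, both lines together), 6 held a library whose gap to its nearest neighbour exceeded Dixon's critical value as a share of the range of the set, at the 5% level. Chance flags about 1 in 20 sets. Atm was 155 CPM in WT line 2 replicate 1, and the next WT library had 83.2 CPM. In the same library, Fanci was 30.9 CPM, above the next at 27.9 CPM, while all RTF2-deficient libraries stayed under both. In WT line 1 replicate 3, Ube2t reached 14.02 CPM, and 11.8 CPM was the next WT value. In RTF2-deficient line 1 replicate 1, Fancd2 reached 24.6 CPM, and the next value was 21.2 CPM. Fancl was lowest, at 5.15 CPM, in RTF2-deficient line 2 replicate 3, below 6.69 CPM in the next. Mus81 was lowest, at 11.98 CPM, in RTF2-deficient line 2 replicate 2, below 13.4 CPM in the next.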

How the results depend on the processing

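Summing the triplicates ended all calls, with 0 members lower or higher and 0 other pathway genes lower or higher, at an adjusted p between 0.162 and 0.249 in edgeR for the 6 called members. Their fold changes hardly move by construction, since the same libraries are summed (-0.56 for Rad51c and 0.42 for Fancm). Voom with a random block for the group, whose estimated correlation within groups was negative at -0.148, called 11 members lower and 2 higher, and 14 other pathway genes lower and 2 higher, against 13.4% and 10.8% of all genes. DESeq2 called 8 members lower over both lines, 3 lower in line 1, 1 higher in WT line 2 and 2 other pathway genes higher, and RLE normalization also gave 2 other pathway genes higher. With 1 library left out, members called lower over both lines were 4 to 6 (823 to 1200 of all genes lower and 335 to 830 higher), other pathway genes called higher 1 to 2, members lower in line 1 0 to 1 (1.1% to 2.51% of all genes), members lower in line 2 1 to 4 (3.11% to 9.14%) and higher in line 2 0 to 1 (2.5% to 7.27%), and members lower and higher in WT line 2 against WT line 1 0 to 1 and 0 to 3 (5.09% to 8.19% and 3.6% to 8.1%). The median log2 fold change of the members was -0.12 to -0.08 over all alternatives.

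A replicate block gave 5 members lower and 1 higher over both lines, as without it, and 1065 genes lower and 581 higher among all genes against 1167 and 711. Deviations of same-numbered libraries of different groups correlated from -0.762 to 0.842, with 12 of 18 pairs over 0.1, and a library correlated best with its own number in 18 of 36 cases, so the numbers were not taken as pairing over all 4 groups. Among the groups other than RTF2-deficient line 2 every same-numbered pair correlated at 0.43 or above. In RTF2-deficient line 2, replicates 3, 1 and 2 correlated at 0.547 to 0.794 with numbers 1, 2 and 3 of the other groups. The labels give no such pairing, and no fit used it. With the block, line 1 libraries alone gave 8 members lower and 2 higher, and no member call changed between the WT lines. Members with a log2 fold change near 0 changed sign. Nbn was 0.0011 with RLE, 0.0036 with no filter, 0.0012 with DESeq2 and -0.0201 to 0.0222 with 1 library left out. Rbbp8 was 0.0060, 0.0088 and 0.0061 in the same fits and -0.0220 to 0.0258 with 1 left out. With 1 library left out, Brca1 ranged from -0.0315 to 0.0556, Bard1 from -0.0872 to 0.0355, Exo1 from -0.0310 to 0.0677 and Fancf from -0.0541 to 0.0465. The cause of these changes was not tested.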
